A study of Mus musculus with 6 samples.

Results

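Notch signalling genes were followed in mouse aortic roots as a set of 10: the ligands Dll1, Jag1 and Dner, the receptors Notch1, Notch2 and Notch3, and the targets Hey1, Hey2, Heyl and Nrarp. The 10 genes were taken by symbol from the array annotation, with all 19 probe sets that it assigns to 1 of these symbols alone, out of 18193 genes measured. Dll1 and Dner were selected on their log2 signal, being lower in klotho-deficient roots than in wild-type roots, so their difference between genotypes is described here without a test. The other 8 genes entered as named parts of the pathway.

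Klotho-deficient roots were dissected from homozygous klotho mutants and wild-type roots from homozygous wild-type mice, all of the strain C57BL/6J albino and 6 to 6.5 weeks old. Each genotype had 3 arrays, and each array carried RNA pooled from the dissected roots of 3 mice, with leaflets, annulus and adjoining aortic wall together. The comparison asks which transcripts of the root differ when klotho, the co-receptor through which the hormone FGF23 controls phosphate, is deficient. Separate pools are the replicates, so errors are those between pools and not between single mice.

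Notch receptors are single-pass membrane proteins that are activated by ligands on a neighbouring cell. Ligand binding exposes the receptor to cleavage by an ADAM protease and then by gamma-secretase, and the freed intracellular domain joins the DNA-binding protein Rbpj and a Mastermind coactivator to switch on genes such as the Hey and Hes repressors and Nrarp. In the heart and great arteries the pathway takes part in valve formation and in the maturation of arterial endothelium and smooth muscle, and mutations of NOTCH1 in humans are linked to bicuspid and calcified aortic valves.

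Markers of the cell types that make up a valve and vessel wall were present in the dissected tissue. All 10 endothelial, 8 smooth muscle and 8 valve interstitial and fibroblast markers stood above background, taken as the highest signal of any Bacillus control probe set (161.8), and so did 8 of 8 cardiomyocyte and 8 of 8 mesothelial markers. Wild-type replicate 3 stood apart. Each of the 10 endothelial markers was highest on that array, and their summed signal was 33964 to 42593 on the klotho-deficient arrays, against 38766, 40897 and 74160 on wild-type replicates 1, 2 and 3. Its mesothelial sum was 61400, against 24115 to 39979 on the klotho-deficient arrays and 37045 and 40810 on the other wild-type arrays. Control probe sets for Gapdh, which report on RNA quality, had 3′ signals over 5′ signals of 3.23 to 4.08 on the klotho-deficient arrays, against 3.72, 3.51 and 7.18 on wild-type replicates 1, 2 and 3. The same ratio for the beta-actin (Actb) controls did not set wild-type replicate 3 apart. It was 1.103 to 1.179 on the klotho-deficient arrays, against 1.073, 1.103 and 1.104 on wild-type replicates 1, 2 and 3. The 3 measured Y-linked genes were below background on klotho-deficient replicates 2 and 3 and above it on the other 4 arrays, so the sex make-up of the pools differed between the genotypes. In tissue pieces such as these, fewer cells of a type and less RNA per cell cannot be told apart.

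The promoter windows of 4 genes are shown: Dll1 and Dner are the ligands with the lower signal, and Hey2 and Nrarp are downstream genes read as outputs of the receptors. Each window runs from 250 bases before to 50 bases after a transcription start in RefSeq, build GRCm38.p6, printed 5′ to 3′ on the strand of the gene. RefSeq windows were matched for 8 of the 10 genes, with 2 starts for Dll1; Hey1 and Heyl were not matched. Capitals mark matches, on either strand, to the Rbpj core TGGGAA, which reads as its reverse complement where it lies on the other strand. They also mark the E-box CACGTG, a palindrome that Hey proteins can bind. The windows lie at chr17:15376883-15377182, minus strand, and chr17:15375774-15376073, minus strand, for Dll1, at chr1:84696172-84696471, minus strand, for Dner, at chr10:30842734-30843033, minus strand, for Hey2 and at chr2:25180508-25180807, plus strand, for Nrarp.
Dll1 upstream start: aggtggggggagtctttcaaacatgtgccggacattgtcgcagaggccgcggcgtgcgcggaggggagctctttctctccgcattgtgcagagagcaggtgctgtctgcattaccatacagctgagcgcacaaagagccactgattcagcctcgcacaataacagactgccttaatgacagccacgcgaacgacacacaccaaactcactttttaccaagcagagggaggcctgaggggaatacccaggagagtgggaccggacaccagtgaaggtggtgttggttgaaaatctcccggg
Dll1 downstream start: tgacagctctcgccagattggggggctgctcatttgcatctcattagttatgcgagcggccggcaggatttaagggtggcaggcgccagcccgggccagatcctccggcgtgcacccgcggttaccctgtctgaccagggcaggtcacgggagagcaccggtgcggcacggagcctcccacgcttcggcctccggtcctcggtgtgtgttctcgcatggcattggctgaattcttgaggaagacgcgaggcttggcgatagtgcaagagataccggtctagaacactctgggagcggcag
Dner: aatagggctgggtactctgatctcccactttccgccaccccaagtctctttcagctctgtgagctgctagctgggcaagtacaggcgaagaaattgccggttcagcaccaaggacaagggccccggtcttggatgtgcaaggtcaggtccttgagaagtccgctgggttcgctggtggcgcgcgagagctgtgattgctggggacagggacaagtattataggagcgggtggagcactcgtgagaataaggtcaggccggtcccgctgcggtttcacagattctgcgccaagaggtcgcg
Hey2: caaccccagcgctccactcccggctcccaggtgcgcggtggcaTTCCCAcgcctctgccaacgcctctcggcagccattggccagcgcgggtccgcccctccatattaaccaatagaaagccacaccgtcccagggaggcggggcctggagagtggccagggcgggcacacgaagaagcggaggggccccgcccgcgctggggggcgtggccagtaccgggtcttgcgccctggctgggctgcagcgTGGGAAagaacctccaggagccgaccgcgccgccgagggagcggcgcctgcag
Nrarp: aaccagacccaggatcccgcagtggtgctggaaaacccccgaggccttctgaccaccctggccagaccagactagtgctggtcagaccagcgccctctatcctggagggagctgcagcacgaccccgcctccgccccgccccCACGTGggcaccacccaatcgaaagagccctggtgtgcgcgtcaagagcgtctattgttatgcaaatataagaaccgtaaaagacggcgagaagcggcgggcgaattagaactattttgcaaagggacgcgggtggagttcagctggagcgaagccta

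The Hey2 window held 2 Rbpj cores, 1 beginning 207 bases before the start on the opposite strand and 1 that spans the start itself, beginning 3 bases before it. The Nrarp window held 1 E-box, beginning 108 bases before the start, and no Rbpj core. Neither Dll1 window and not the Dner window held either motif. Over the 9 member windows, 1 held an Rbpj core and 1 an E-box, against 25.6% and 7.15% of all 32851 RefSeq windows of the same length. The 2 motifs can overlap by letters, and no printed match does. These are matches of letters in a short window and not measured binding.

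Among the ligands, Dll1 and Dner had the lower signals for which they were chosen. Dll1, a canonical Delta ligand, gave signals of 1958.8, 1357.6 and 2323.7 in klotho-deficient roots, against 3686.3, 4129.3 and 5021 in wild-type roots. All 3 klotho-deficient arrays lay below the lowest wild-type array. Dll1 averaged 1880 ± 488 in klotho-deficient roots, against 4279 ± 680 in wild-type ones (SD, n = 3 each). The difference between the means of log2 signal was -1.21 ± 0.26 (± SE from limma), a 2.31-fold lower signal.

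Dner, an atypical ligand with EGF-like repeats best known from neurons of the mouse cerebellum, gave 1081.7, 772.9 and 1072.4 in klotho-deficient roots, against 2573, 2497.9 and 1964 in wild-type roots, on its brighter probe set (1456379_x_at). Klotho-deficient replicates 1 and 3 lay close together and replicate 2 was lower, and all 3 were below the wild-type arrays. The difference between the means of log2 signal was -1.27 ± 0.22, a 2.41-fold lower signal. The suffix of that probe set marks probes that may also bind other transcripts. The other Dner probe set (1423671_at) gave 444.1, 247.4 and 308.4 in klotho-deficient roots, against 671.2, 506.1 and 512.8 in wild-type roots, also without overlap and with a smaller difference of -0.79 ± 0.29.

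Of all 18193 genes, 13.5% had arrays that did not overlap between genotypes, and 6.84% had every klotho-deficient array below every wild-type array, and the differences of Dner and Dll1 stood 298th and 344th from the most negative. These places only describe the pair, since the pair was picked for them. Because Dner is known from neurons, the neuronal markers were read beside it. Of 8 measured, 4 were lower in klotho-deficient roots, 7 stood above background on some array, none was at 0, and their summed signal was 2399 to 4273 on klotho-deficient and 2803 to 3458 on wild-type arrays, which overlap.

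Several lists of markers of other cell types went mostly one way, though no gene passed over all genes. The sex make-up of the pools also differed between the genotypes. The part of either in the Dll1 and Dner differences was not tested. Of the 10 endothelial markers 9 were lower in klotho-deficient roots, with a median log2 difference of -0.41 and none at 0. Without overlap 4 were lower, against 6.84% of all genes. On wild-type replicates 1 and 2 the endothelial sums, 38766 and 40897, lay within the klotho-deficient range of 33964 to 42593. Of the 8 mesothelial markers 7 were lower, with a median log2 difference of -0.67 and 4 without overlap. Of the 6 measured T cell and thymus markers 5 were lower, with a median log2 difference of -0.68, none at 0 and sums of 458 to 774 on klotho-deficient arrays, against 661 to 974 on wild-type arrays. Their signals were dim, 5 standing above background on some array. Without overlap 1 was lower (Cd3g) and 1 higher (Ptcra). Of the 8 cartilage markers 1 was lower, with a median log2 difference of 0.69, none at 0, none without overlap and sums of 6369 to 34843 on klotho-deficient arrays, against 8457 to 10491 on wild-type arrays. Schwann cell markers were lower in 1 of 5 measured, with a median of 0.39 and none without overlap. Their sums were 2052 to 4007 on klotho-deficient arrays, against 2112 to 3256 on wild-type arrays. Smooth muscle markers and valve interstitial and fibroblast markers were lower in 2 of 8 each, with medians of 0.076 and 0.0092. Cardiomyocyte markers were lower in 5 of 8, with a median of -0.038. Dll1 was highest on wild-type replicate 3, where the endothelial and mesothelial sums peak. Dner was lowest there among the wild-type arrays on 1456379_x_at, at 1964. On 1423671_at its lowest wild-type array was replicate 2, at 506.1, against 512.8 on replicate 3. Leaving wild-type replicate 3 out gave log2 differences of -1.09 ± 0.29 for Dll1 and -1.39 ± 0.23 for Dner. With a term for the arrays without Y-linked transcripts the log2 differences were -1.12 for Dll1 and -1.11 for Dner. That term takes up klotho-deficient replicates 2 and 3. These 2 values therefore set klotho-deficient replicate 1 alone against the wild-type arrays.

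**Figure D1:**
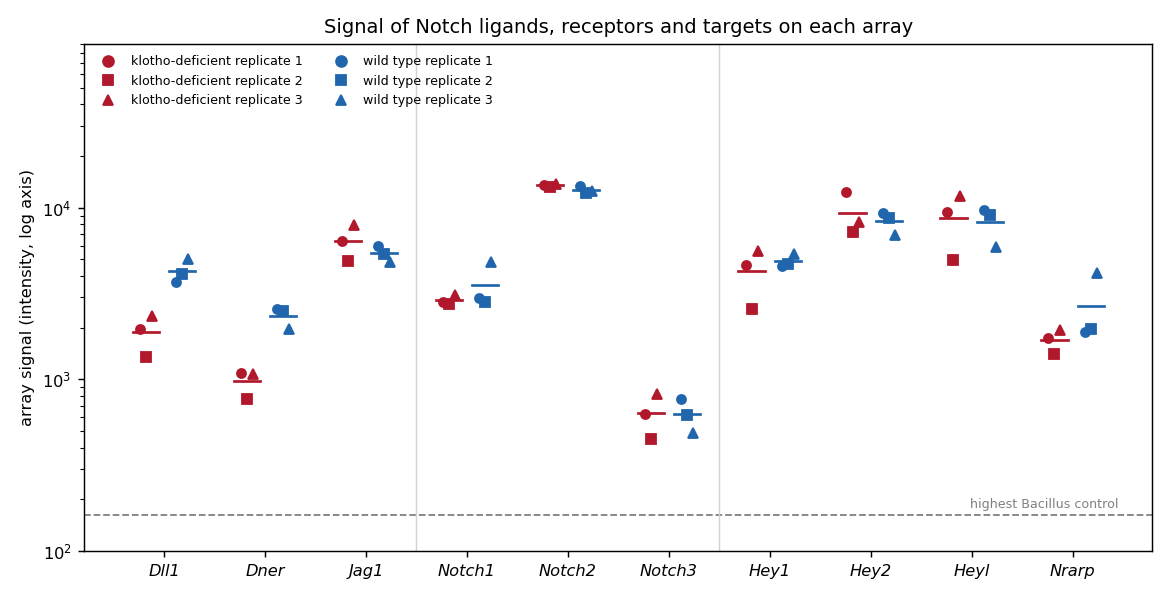
Array signal (log axis) of the 10 genes on each of 3 klotho-deficient (red, left) and 3 wild-type (blue, right) arrays, each gene by its brightest probe set, with horizontal lines at the means. Dll1 and Dner, chosen for their lower signal in klotho-deficient roots, do not overlap between genotypes on the probe sets shown, as for 13.5% of all genes. Heights are not comparable between genes, whose probes differ.

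Jag1, the Serrate-type ligand of arterial endothelium and smooth muscle, had positive differences. Its brightest probe set (1434070_at) gave 6414.9, 4922.9 and 7892.2 in klotho-deficient roots, against 5978.6, 5398.6 and 4858.1 in wild-type roots. The groups overlap, klotho-deficient replicate 2 lying within the wild-type range. The log2 difference was 0.22 ± 0.23, with a 95% interval of -0.34 to 0.79 (limma, adjusted p = 0.886), and it was 0.06 ± 0.22 without klotho-deficient replicate 3 and 0.40 ± 0.22 without klotho-deficient replicate 2. Probe set 1421106_at gave 3381.3, 3209.5 and 4344.5 in klotho-deficient roots, against 2881.2, 2863.9 and 2603.8 in wild-type roots. Here all 3 klotho-deficient arrays were above the wild-type arrays, with a log2 difference of 0.38 ± 0.21 that did not pass over all probe sets (limma, adjusted p = 0.943). Higher without overlap were 5.96% of all 45037 probe sets. The third Jag1 probe set, 1421105_at, differed by 0.16 ± 0.21 and overlapped, so all 3 had a positive difference and none passed.

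The receptors gave small differences. None of the 8 tested genes of the set passed in limma over all genes, where 0 genes, or 0% of 18193, passed in all and 6.41% had an unadjusted p under 0.05; 0 of the 8 had an unadjusted p under 0.05. Notch2, the receptor with the tightest replicates, gave 13528.1, 13134.7 and 13800.9 in klotho-deficient roots, against 13306.4, 12177.9 and 12582.9 in wild-type roots (1455556_at). The ranges overlap only at their edges, and the log2 difference was 0.09 ± 0.16 (95% interval -0.30 to 0.47, adjusted p = 0.932 in limma). Its other probe set differed by 0.09 ± 0.26.

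Notch1, the receptor of endothelium whose human counterpart is linked to aortic valve disease, gave 2816.6, 2729.8 and 3093.5 in klotho-deficient roots, against 2967.9, 2806 and 4820.6 in wild-type roots (1418634_at). Wild-type replicate 3 was the high array and the other 5 lay close together. The log2 difference was -0.25 ± 0.26 (95% interval -0.88 to 0.37, limma adjusted p = 0.884) and was -0.0050 ± 0.17 without wild-type replicate 3. On the other Notch1 probe set (1418633_at) the high array was instead wild-type replicate 1, at 1042, and the log2 difference was -0.17 ± 0.22.

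Notch3, the receptor of arterial smooth muscle and pericytes, gave 630, 448.9 and 818.5 in klotho-deficient roots, against 765.7, 622.1 and 485.9 in wild-type roots (1421965_s_at). Each genotype held high and low arrays and the means were 632 ± 185 and 625 ± 140 (SD, n = 3 each). The log2 difference was 4.8e-05 ± 0.30, with a 95% interval of -0.72 to 0.72 (limma, adjusted p = 1.00), and its sign turned in 6 of 15 other settings. Probe set 1421964_at also differed little, by 0.07 ± 0.25.

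**Figure D2:**
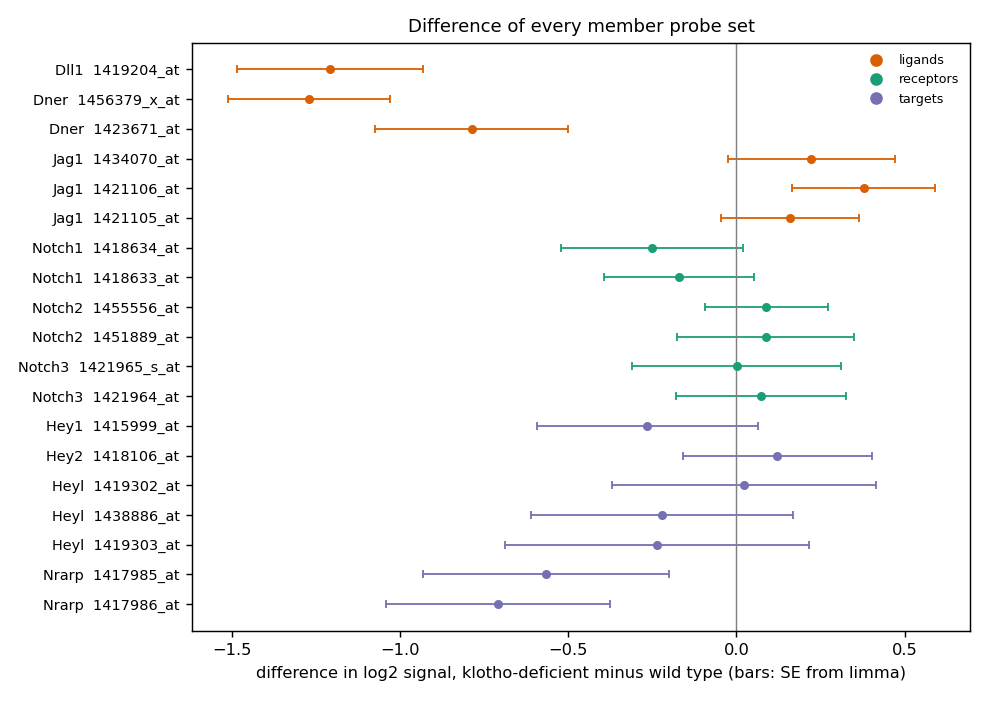
Difference in log2 signal, klotho-deficient minus wild type, for each of the 19 probe sets of the 10 genes (points; bars are the SE from the fit over all probe sets), coloured by role. The 3 probe sets of Dll1 and Dner, genes chosen for lower signal, lie farthest left, at -1.27 to -0.79. Those of the receptors lie between -0.25 and 0.09.

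The Hey genes, repressors of the basic helix-loop-helix class that Notch switches on in vessels and valves, had overlapping signals throughout. Hey1 gave 4623.1, 2580.3 and 5592 in klotho-deficient roots, against 4601.3, 4694.1 and 5367.2 in wild-type roots. Klotho-deficient replicate 2 alone was low. The log2 difference of -0.27 ± 0.32 (95% interval -1.04 to 0.51, limma adjusted p = 0.899) became 0.06 ± 0.21 without that array. With the term for Y-linked transcripts, which sets klotho-deficient replicate 1 alone against wild type, it was -0.077.

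Hey2, a regulator of arterial identity and smooth muscle in the mouse, gave 12388.5, 7175.6 and 8228.4 in klotho-deficient roots, against 9329.6, 8753.7 and 6958.4 in wild-type roots. Klotho-deficient replicate 1 was the high array, and the other 2 lay within the wild-type range. The log2 difference was 0.12 ± 0.27 (95% interval -0.53 to 0.77, limma adjusted p = 0.946), and it was -0.11 ± 0.24 without klotho-deficient replicate 1. With the term for Y-linked transcripts it was 0.58, which is that high array alone against wild type. Hey2 is the gene whose window above carries the 2 Rbpj cores.

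Heyl, a Notch3 target of mouse vascular smooth muscle, gave 9462.6, 4927.5 and 11652.1 in klotho-deficient roots, against 9679.9, 9026.6 and 5939.4 in wild-type roots on its brightest probe set (1419302_at). The low arrays were klotho-deficient replicate 2 and wild-type replicate 3, and the same 2 arrays were the lowest for Notch3 on probe set 1421965_s_at. On the other Notch3 probe set, 1421964_at, the lowest were wild-type replicate 3, at 284.9, and klotho-deficient replicate 1, at 323.8. The log2 difference of Heyl on 1419302_at was 0.02 ± 0.38 (95% interval -0.91 to 0.96, limma adjusted p = 0.996). It was 0.24 with the term for Y-linked transcripts, again klotho-deficient replicate 1 alone against wild type. The other Heyl probe sets, 1438886_at and 1419303_at, had log2 differences of -0.22 ± 0.39 and -0.24 ± 0.45, so the sign of Heyl depended on the probe set.

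Nrarp, an ankyrin-repeat protein that is induced by Notch and limits it, was the target with the most negative difference. It gave 1749.9, 1403.3 and 1937.5 in klotho-deficient roots, against 1891, 1960.5 and 4165.7 in wild-type roots (1417985_at). Wild-type replicate 3 stood far above the other 5 arrays, and without it the genotypes still overlap. The log2 difference was -0.57 ± 0.36 (95% interval -1.43 to 0.30, limma adjusted p = 0.823) with that array and -0.20 ± 0.22 without it. The other Nrarp probe set, 1417986_at, gave 371, 291.1 and 334.8 in klotho-deficient roots, against 408.2, 453.3 and 855.6 in wild-type roots. On that dimmer probe set the genotypes did not overlap, with a log2 difference of -0.71 ± 0.33 (limma over all probe sets, adjusted p = 0.926), where 5.71% of all probe sets were lower without overlap. The peak of Nrarp on wild-type replicate 3 fell on the array with the highest endothelial and mesothelial sums, and the part of either in the Nrarp difference was not tested.

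**Figure D3:**
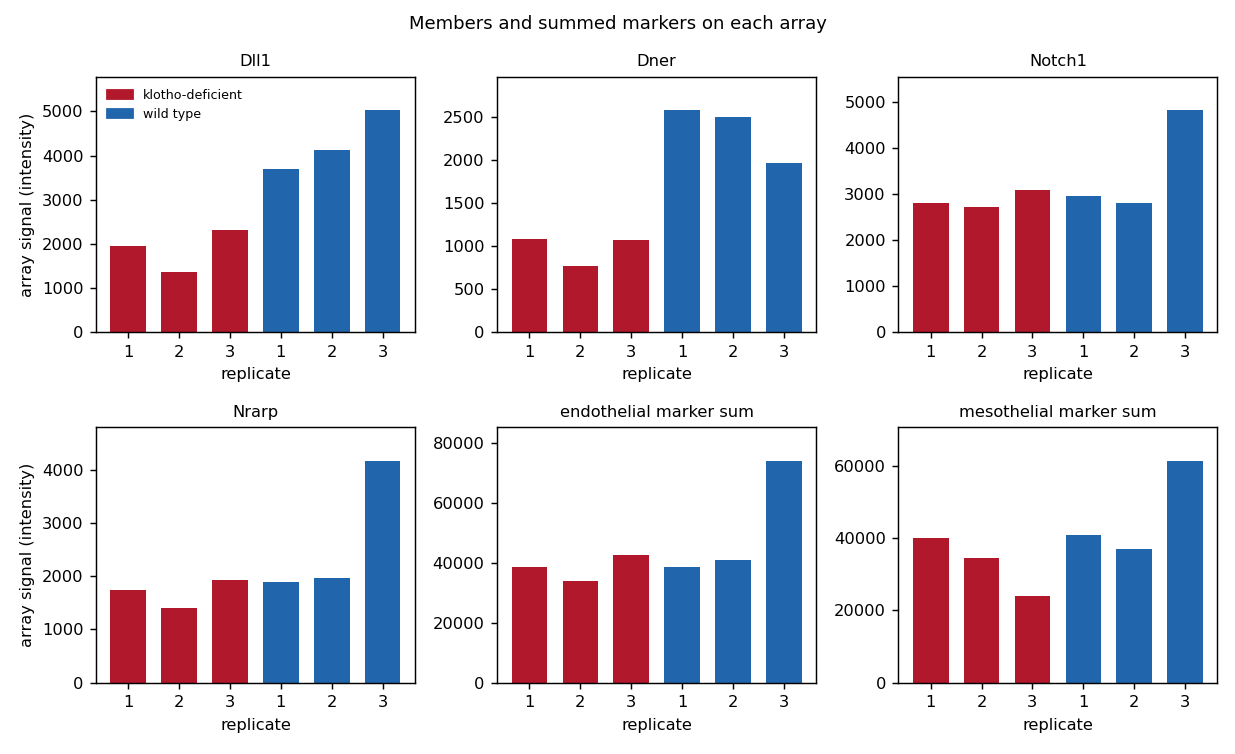
Bars give the array signal of Dll1, Dner, Notch1 and Nrarp and the summed signal of 10 endothelial and 8 mesothelial markers on klotho-deficient (red) and wild-type (blue) replicates 1 to 3, each axis starting at 0. Wild-type replicate 3 is the high array for Notch1, at 4820.6, for Nrarp, at 4165.7, and for both marker sums. Dner, shown by 1456379_x_at, is lowest there among wild-type arrays, at 1964, which its other probe set does not show.

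Single arrays were shared between genes. Klotho-deficient replicate 2 was the lowest of all 6 arrays for 7 of the 10 genes on their brightest probe set, namely Dll1, Dner, Notch1, Notch3, Hey1, Heyl and Nrarp, and for 12 of the 19 probe sets. It was also lowest for 5 of 10 endothelial and 2 of 8 smooth muscle markers, for 1 each of 8 valve interstitial and fibroblast, 8 neuronal and 6 T cell and thymus markers, and for 0 of the mesothelial, cardiomyocyte, cartilage and Schwann cell markers. Wild-type replicate 3 was highest for 3 of the 10 genes, Dll1, Notch1 and Nrarp. These counts take in Dll1 and Dner, which were chosen for their lower signal in klotho-deficient roots. The like shares over all genes were not counted, so the counts only describe the set. Over the 8 tested genes the median log2 difference was 0.01, with 5 positive and 3 negative, against a median of 0.0030 over all 18193 genes. All 8 intervals held 0.

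The wider pathway was read from 39 measured genes outside the set. None of the 39 passed in limma over all genes, with adjusted p from 0.671 to 0.998. Differences were positive for 20 and negative for 19, with a median of 0.0049 on the log2 scale. At an unadjusted p under 0.05 there was 1 higher gene, Dlk2, and 2 lower genes, Neurl1b and Dtx4, against 3.25% higher and 3.16% lower over all genes. The arrays did not overlap for 3 genes that were higher and 4 that were lower in klotho-deficient roots, against 6.63% and 6.84% over all genes.

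Among further ligands and receptors, Dlk2, a Delta-like protein without the receptor-activating DSL domain, gave 530.1, 689.1 and 648.3 in klotho-deficient roots, against 334.2, 438 and 377.7 in wild-type roots. Its arrays did not overlap, in the direction opposite to Dll1, with a log2 difference of 0.70 ± 0.20 (limma, adjusted p = 0.671). That difference was 0.39 ± 0.26 with the mean over probe sets. It was 0.48 with the term for Y-linked transcripts, which sets klotho-deficient replicate 1 alone against wild type. The other Dlk2 probe set was below background on all arrays. Dll3, a Delta protein that acts inside the cell, reached background on 1 array only, at 163.7 on klotho-deficient replicate 2, so its log2 difference of 0.55 ± 0.43 rests on dim signals. It was 0.33 ± 0.48 without klotho-deficient replicate 2, 0.87 ± 0.42 without klotho-deficient replicate 3, 0.87 ± 0.43 without wild-type replicate 1 and 0.22 ± 0.41 without wild-type replicate 3. Dll4, the endothelial Delta ligand, differed by 0.17 ± 0.33 and Notch4, the endothelial receptor, by -0.24 ± 0.35, both with overlap.

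Ligands work only after ubiquitin ligases drive their uptake in the sending cell. Neurl1b, a Neuralized-type ligase, gave 187.7, 266.1 and 319.7 in klotho-deficient roots, against 463.2, 344.5 and 440.8 in wild-type roots. All 3 klotho-deficient arrays were below the wild-type arrays, with a log2 difference of -0.71 ± 0.26 (limma, adjusted p = 0.755). For Neurl1b the term for Y-linked transcripts gave -1.14, which is klotho-deficient replicate 1 alone against wild type. Its relative Neurl1a went the other way without overlap on its brightest probe set, at 0.34 ± 0.19 (adjusted p = 0.807 in limma), and its 5 dimmer probe sets ran from -1.37 to 1.28. The Mindbomb ligase Mib1 gave 8845.2, 7894.4 and 8749.5 in klotho-deficient roots, against 7490.1, 7845.6 and 5217.9 in wild-type roots, without overlap, and differed by 0.33 ± 0.22 on the log2 scale (limma, adjusted p = 0.828). Mib2 overlapped, at 0.34 ± 0.34.

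Of 8 measured genes for receptor cleavage, Adam17, a sheddase related to the main Notch protease Adam10, gave 3551.6, 3189.3 and 3733.8 in klotho-deficient roots, against 4285.4, 4720.1 and 4473.9 in wild-type roots. The arrays did not overlap, and the log2 difference was -0.37 ± 0.17 (limma, adjusted p = 0.77). A dimmer Adam17 probe set (1421857_at) did not overlap either, at -0.43 ± 0.20, whereas 1421859_at overlapped at -0.12 ± 0.26. Adam10 differed by -0.04 ± 0.17. The gamma-secretase subunit Aph1b differed by 0.25 ± 0.17.

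Receptor glycosylation and the nuclear complex gave no array separation in any of 9 measured genes. The fringe enzyme Lfng, which tunes the response of Notch to Delta and Jagged ligands, differed by -0.44 ± 0.32, and Poglut1, which adds glucose to the receptor, by -0.21 ± 0.24. With 1 array left out Lfng ran from -0.68 ± 0.31, when that was klotho-deficient replicate 2, to -0.18 ± 0.29, when it was klotho-deficient replicate 3, and leaving out wild-type replicate 3 gave -0.25 ± 0.34. For Poglut1 the difference was -0.097 ± 0.26 when klotho-deficient replicate 3 was left out, against -0.35 ± 0.28 for wild-type replicate 2 and -0.016 ± 0.21 for wild-type replicate 3. The second Lfng probe set had the opposite sign, 0.16 ± 0.25. Rbpj, the DNA-binding partner of the receptor, differed by 0.04 ± 0.23, and the coactivators Maml1 and Maml2 by 0.21 ± 0.31 and 0.40 ± 0.26. Maml1 was -0.076 ± 0.23 without klotho-deficient replicate 3 and 0.48 ± 0.26 without klotho-deficient replicate 2, and Maml2 was 0.15 ± 0.18 without wild-type replicate 3.

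Among 8 inhibitors and turnover genes, Dtx4, a Deltex ubiquitin ligase of the receptor, gave 2153.8, 2231.1 and 2746.3 in klotho-deficient roots, against 3921.9, 3250.7 and 3494.9 in wild-type roots. The arrays did not overlap, and the log2 difference of -0.59 ± 0.19 did not pass (limma, adjusted p = 0.723). Its other probe set, 1436545_at, gave 1208, 1410 and 1676.3 in klotho-deficient roots, against 1975.5, 1907.2 and 2047.5 in wild-type roots. Both Dtx4 probe sets thus separated the arrays in the same direction. The related Dtx3 also had no overlap, at -0.38 ± 0.19 (limma, adjusted p = 0.796), and Numb, which antagonises the receptor, differed by -0.16 ± 0.24.

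The Hes genes, the other main family of Notch targets, did not separate the genotypes. Hes1 gave 317.6, 361 and 282.5 in klotho-deficient roots, against 297, 288.2 and 336.2 in wild-type roots, a log2 difference of 0.06 ± 0.18 (limma, adjusted p = 0.969). Hes6 differed by 0.16 ± 0.21 on its brighter probe set and by -0.53 ± 0.36 on the other. Hes5 and Hes7 were below background in both genotypes.

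**Figure D4:**
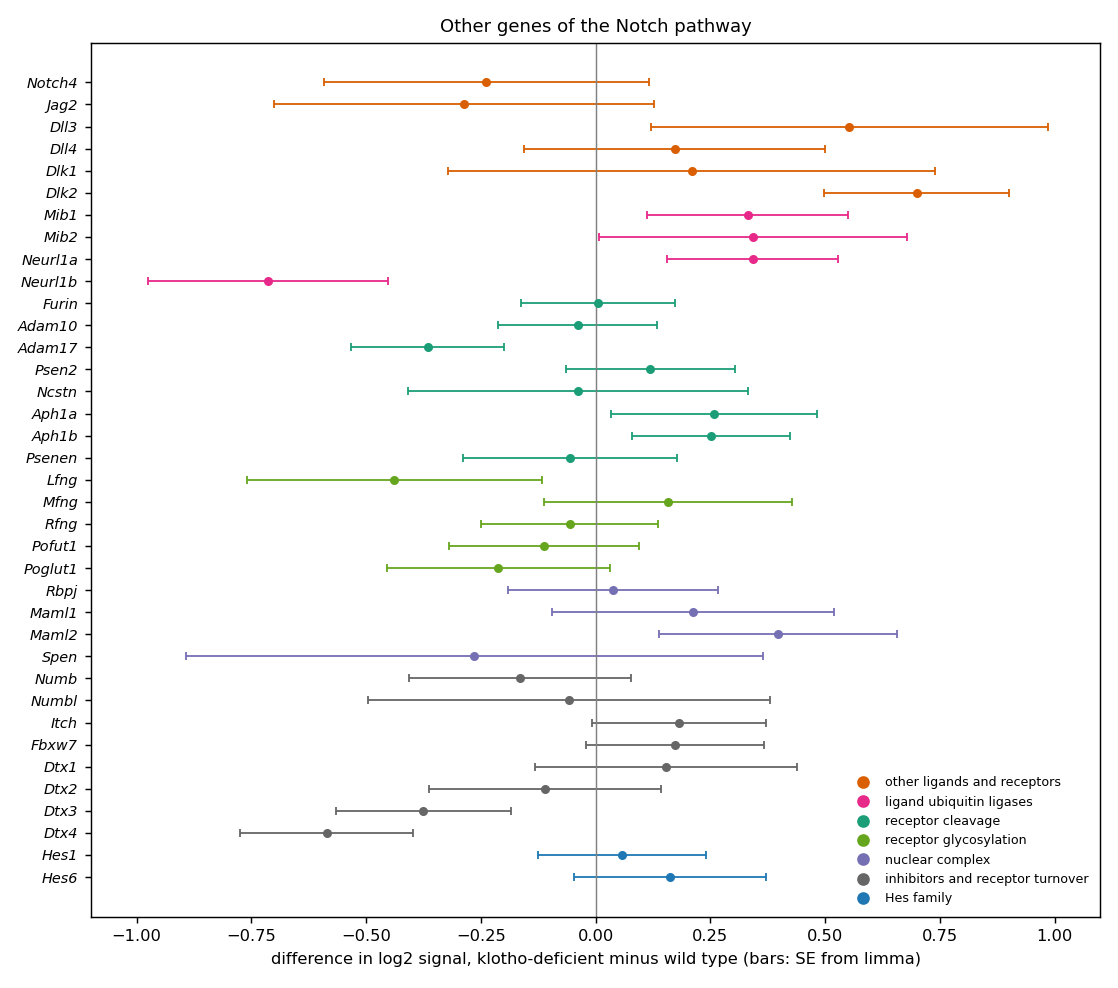
Difference in log2 signal, klotho-deficient minus wild type, for the 37 measured pathway genes outside the set that reached background in a genotype (points; bars are the SE from limma), coloured by class. Dlk2 lies farthest right, at 0.70, and Neurl1b farthest left, at -0.71; none passed over all genes.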

How the data were processed

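The deposited values were array intensities on a linear scale, 1 per probe set for 45101 probe sets of a mouse Affymetrix array. The submitters' processing notes name RMA without a version; how linear values came from it is not stated there. The 2% trimmed mean was 1500.01 on every array, while medians were 425.6 to 556.6. Per the labels' protocols, RNA was amplified and biotin-labelled with NuGEN kits.

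Values were log2-transformed with no pseudocount. Each gene was represented by its probe set of highest mean log2 signal among those annotated to 1 gene (34945 probe sets, 18193 genes). The genotype difference was fitted by limma (version 3.58.1, R 4.3.3) with lmFit, then eBayes. Tests were two-sided, with Benjamini-Hochberg adjustment over all genes and a threshold of 0.05. The procedure was tested on simulated data. A second fit over all 45037 probe sets other than controls gave the values of single probe sets. Gene symbols came from the platform annotation, and promoter sequences from RefSeq. Precision is limited by the number of arrays.

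The 10 genes and all gene lists were chosen with earlier results of these data known. Pathway genes named outside the set are, in each class, the 2 of smallest p above background; other pathway genes are named for their role after their values were seen. Alternatives were quantile normalization, centring on medians, the replicate number as a block, a filter on dim genes, an offset of 100, a trended and robust prior, array weights, the mean over probe sets, a term for pools lacking Y-linked transcripts, and each array left out. With the Y-linked term only klotho-deficient replicate 1 sets the genotype difference, so that fit does not give a difference adjusted for sex.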

Additional observations from a re-analysis of the deposited data

How the results depend on the processing

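None of the 8 tested members and none of the 39 pathway genes passed over all genes under any of the 15 other settings in which they were fitted; dim pathway genes such as Dll3 dropped out under the filter. The lowest adjusted p (limma) was 0.67 for a tested member and 0.39 for a named pathway gene. Dll1 ran from -1.38 to -0.99 and Dner from -1.39 to -1.03, with a sign that follows from how the pair was chosen. Over all genes the count of calls was 0 in the main setting. It was 1 (Dbp, higher) with only genes above the highest Bacillus control, 1 (Dbp) with the offset of 100, 2 (Dbp and Sphk2) with the trended and robust prior, 1 (Dbp) with array weights, and 0 to 1 with an array left out, the 1 being the Y-linked Eif2s3y without klotho-deficient replicate 1. Over all probe sets it was 1 with the offset of 100 and 0 with any single array left out. Main counts at an unadjusted p under 0.05 were 591 genes higher and 575 lower.

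Differences near 0 changed sign. Notch3 was -0.051 with quantile normalization, -0.0049 with median centring and -0.14 with array weights. Heyl was -0.093 with array weights and -0.14 with the mean over probe sets. Hes6 was -0.18 with the mean over probe sets. It was -0.0060 with the covariate for Y-linked transcripts, where klotho-deficient replicate 1 alone stands for its genotype. With an array left out the ranges were -0.21 to 0.23 for Notch3, -0.50 to 0.060 for Hey1, -0.11 to 0.29 for Hey2, -0.23 to 0.39 for Heyl, -0.076 to 0.48 for Maml1 and -0.033 to 0.14 for Hes1. The cause was not tested.

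The replicate block called 0 genes, 0 tested members, 0 pathway genes and 0 probe sets. Same-numbered arrays had correlations of deviations of 0.17, -0.0097 and 0.16 across genes above background. Arrays of unlike number had -0.20 to 0.072, so replicates 1 and 3 correlated best with their own number and klotho-deficient replicate 2 did not. The labels do not say whether the numbers pair the pools. The main fit does not pair them, and the block gives the paired reading.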
